A study of Mus musculus with 34 samples.

Results

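The TLR4 receptor and adaptor genes comprised 10 genes: the receptors Tlr4 and Tlr2, the co-receptors Cd14 and Ly96, the adaptors Myd88, Tirap, Ticam1 and Ticam2, and the kinases Irak2 and Irak3. They were chosen by name, with earlier results of these data known. Every peak whose midpoint fell in a gene body or within 20 kb on either side (GENCODE annotation of mm10) was taken. These windows held 1402 of the 596383 peaks in the 30 deposited lists. Across lists, peaks with 1 bp or more in common were merged into a locus, which gave 164 loci, of which 135 were in at least 1 list for a member of the AP-1 family (ATF3, Jun, JunD, Fos, FosL2 or JunB).

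The study mapped transcription factors by ChIP-seq in thioglycollate-elicited macrophages (TGEMs), peritoneal macrophages harvested on day 3 after the injection. The C57Bl/6EiJ and Balb/cJ mice were males aged 8 weeks, and sex and age are not given for the PPARgKO mice in the sources used here. Cells received PBS (Veh) or 100 ng/mL Kdo2 lipid A (KLA), a ligand of TLR4, for 1 h. Mice labelled C57Bl/6EiJ (C57Bl/6J in the study's methods) gave 17 lists: the 6 AP-1 monomers (FosL2 is labelled Fra2), PU.1 and C/EBPα under Veh and KLA, and PPARγ under Veh. Mice labelled PPARgKO on the same background gave 3 Veh lists (ATF3, Jun, JunD), and Balb/cJ mice gave 10 (ATF3, Jun, JunD, Fos and JunB under Veh and KLA). How PPARγ was deleted and in which cells is not given in the sources used here, and there was no PPARγ list from these mice to check it. The 4 input samples had no list.

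Each condition was a single list, filtered by the authors for peaks shared between replicate experiments, so no difference below has a replicate error and none was tested. A peak's strength is the whole-number count beside it, and its position from the top of its list by count ("top 3%") is used to compare lists. Such a position depends on list length. Where the KLA list is the longer, it can improve without a better rank. The AP-1 lists with any peak ran from 9 peaks (Balb/cJ JunB Veh) to 40459 (Balb/cJ Fos KLA), and the Balb/cJ Fos Veh list was empty. The C57Bl/6EiJ JunD KLA list had a median count of 277 against 19 to 74 in the other C57Bl/6EiJ AP-1 lists, and PU.1 Veh had 259 against 62 in PU.1 KLA. Raw counts are therefore printed for reference, and changes between lists are read from positions or from scaled count ratios. These were bulk samples, in which fewer bound cells and less binding per cell cannot be told apart. PU.1 peaks were found within 20 kb of all 6 macrophage genes checked (Adgre1, Itgam, Cd68, Lyz2, Mertk, Spi1), with 6 to 18 in the Veh list at each. They were also found at 5 of 6 genes of other cells, with 6 at Ms4a1 and 0 to 2 at the rest.

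TLR4 binds lipid A together with MD-2, the product of Ly96, after CD14 has handed the ligand over. MyD88, brought in by TIRAP, starts the branch that activates NF-κB and MAP kinases through the IRAK kinases. TRIF, the product of Ticam1, works with TRAM, the product of Ticam2, and starts the branch that leads to interferon genes. IRAK2 carries the MyD88 signal, and IRAK3 (IRAK-M) restrains it. AP-1 dimers of Jun and Fos proteins are targets of this pathway and bind the TRE (TGACTCA, read as TGAGTCA on the other strand) or the CRE (TGACGTCA).

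The loci that carry the contrasts below are shown as 200 bases of the mm10 reference (GRCm38), plus strand, centred on the strongest AP-1 peak, with TRE and CRE letters in capitals. The first pair lies upstream of Tlr2, where neighbouring loci were in the lists of both treatments and of KLA only. The next is the intronic Tlr4 locus in the largest number of lists. Ticam1 is represented by its promoter, the strongest Jun locus near a start site. Ly96 is shown by an intronic locus found in C57Bl/6EiJ but no Balb/cJ list. Irak2 has an intronic locus that moved up under KLA and another that moved down, and Irak3 an upstream locus of KLA lists.
Tlr2, 3.6 kb upstream (chr3:83845256-83845455): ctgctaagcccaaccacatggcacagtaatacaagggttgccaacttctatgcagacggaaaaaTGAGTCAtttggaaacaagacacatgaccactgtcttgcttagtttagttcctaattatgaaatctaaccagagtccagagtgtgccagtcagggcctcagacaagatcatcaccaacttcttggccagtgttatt
Tlr2, 3.2 kb upstream (chr3:83844780-83844979): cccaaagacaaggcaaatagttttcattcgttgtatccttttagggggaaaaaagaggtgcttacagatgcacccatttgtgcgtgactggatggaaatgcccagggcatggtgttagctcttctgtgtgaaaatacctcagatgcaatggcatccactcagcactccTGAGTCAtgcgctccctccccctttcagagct
Tlr4, intron at 29.6 kb (chr4:66857086-66857285): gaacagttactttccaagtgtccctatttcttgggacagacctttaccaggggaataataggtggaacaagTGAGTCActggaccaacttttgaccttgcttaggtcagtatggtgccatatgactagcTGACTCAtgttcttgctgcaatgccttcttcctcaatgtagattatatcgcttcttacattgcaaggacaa
Ticam1, start site (chr17:56276775-56276974): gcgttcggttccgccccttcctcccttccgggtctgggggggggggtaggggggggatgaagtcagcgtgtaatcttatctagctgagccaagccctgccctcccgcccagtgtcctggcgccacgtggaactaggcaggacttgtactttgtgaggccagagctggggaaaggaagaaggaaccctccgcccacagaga
Ly96, intron at 14.9 kb (chr1:16702945-16703144): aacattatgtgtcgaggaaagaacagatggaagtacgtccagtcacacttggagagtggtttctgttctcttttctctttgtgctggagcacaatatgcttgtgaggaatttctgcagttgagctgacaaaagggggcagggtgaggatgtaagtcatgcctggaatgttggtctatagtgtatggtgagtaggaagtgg
Irak2, intron at 6.6 kb (chr6:113644892-113645091): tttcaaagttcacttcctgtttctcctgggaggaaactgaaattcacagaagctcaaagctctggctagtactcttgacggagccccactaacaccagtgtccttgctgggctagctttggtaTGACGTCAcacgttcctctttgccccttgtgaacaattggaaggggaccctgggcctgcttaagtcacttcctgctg
Irak2, intron at 41.7 kb (chr6:113680046-113680245): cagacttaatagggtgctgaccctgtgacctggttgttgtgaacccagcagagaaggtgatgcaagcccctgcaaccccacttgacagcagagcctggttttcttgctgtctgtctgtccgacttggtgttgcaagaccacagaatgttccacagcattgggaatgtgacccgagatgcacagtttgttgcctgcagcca
Irak3, 2.6 kb upstream (chr10:120204642-120204841): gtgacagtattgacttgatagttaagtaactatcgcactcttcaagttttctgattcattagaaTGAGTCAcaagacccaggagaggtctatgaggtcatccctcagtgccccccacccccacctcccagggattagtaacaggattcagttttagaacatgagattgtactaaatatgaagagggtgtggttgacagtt
The Tlr2 pair had 1 TRE each, the Tlr4 locus 2 and the Irak3 locus 1, while the Irak2 locus that moved up had a CRE. The Ticam1, Ly96 and other Irak2 windows held neither. The Ticam1 bases are centred on the C57Bl/6EiJ Jun KLA peak, and the ATF3, JunD and Fos KLA peaks there reach beyond them. Bases outside the printed window were not searched at that locus. Over the 104 loci of the C57Bl/6EiJ AP-1 lists in the 10 windows, 23 (22.1%) held a TRE in these 200 bases, against 27.3% of 49586 AP-1 loci genome-wide. A CRE was in 3 (2.89%, against 1.48%), and the C/EBP letters TTGCNNAA were in 17 (16.4%, against 15.7%). GAGGAAGT, a PU.1 core, was in 2 (1.92%, against 7.79%), and the κB motif in 3 (2.89%, against 5.45%). Both strands were searched throughout, and a match is a description of the letters, not a bound site.

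AP-1 was near all of these genes before and after KLA. In the C57Bl/6EiJ lists, each of the 10 windows held an AP-1 peak under Veh, and each held 1 under KLA. The shares of 21938 protein-coding genes with windows of the same kind were 56.5% and 59.4%. The strongest 5% of a list is a sharper measure. In C57Bl/6EiJ a KLA peak of that strength was near 6 of the 10 genes (Tlr2, Cd14, Ticam1, Ticam2, Irak2, Irak3), against 9.08% of coding genes. A Veh peak of that strength was near 4 (Tlr4, Tlr2, Cd14, Ticam1), against 8.33%. Balb/cJ lists added Tlr4 under KLA (ATF3, top 4.84%) and Irak2 under Veh (JunD, top 4.85%). Ly96, Myd88 and Tirap had none in either state. The genes were chosen with earlier results known, and long genes such as Tlr4 (102.7 kb) have longer windows, so the contrast with coding genes is descriptive only.

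**Figure D1:**
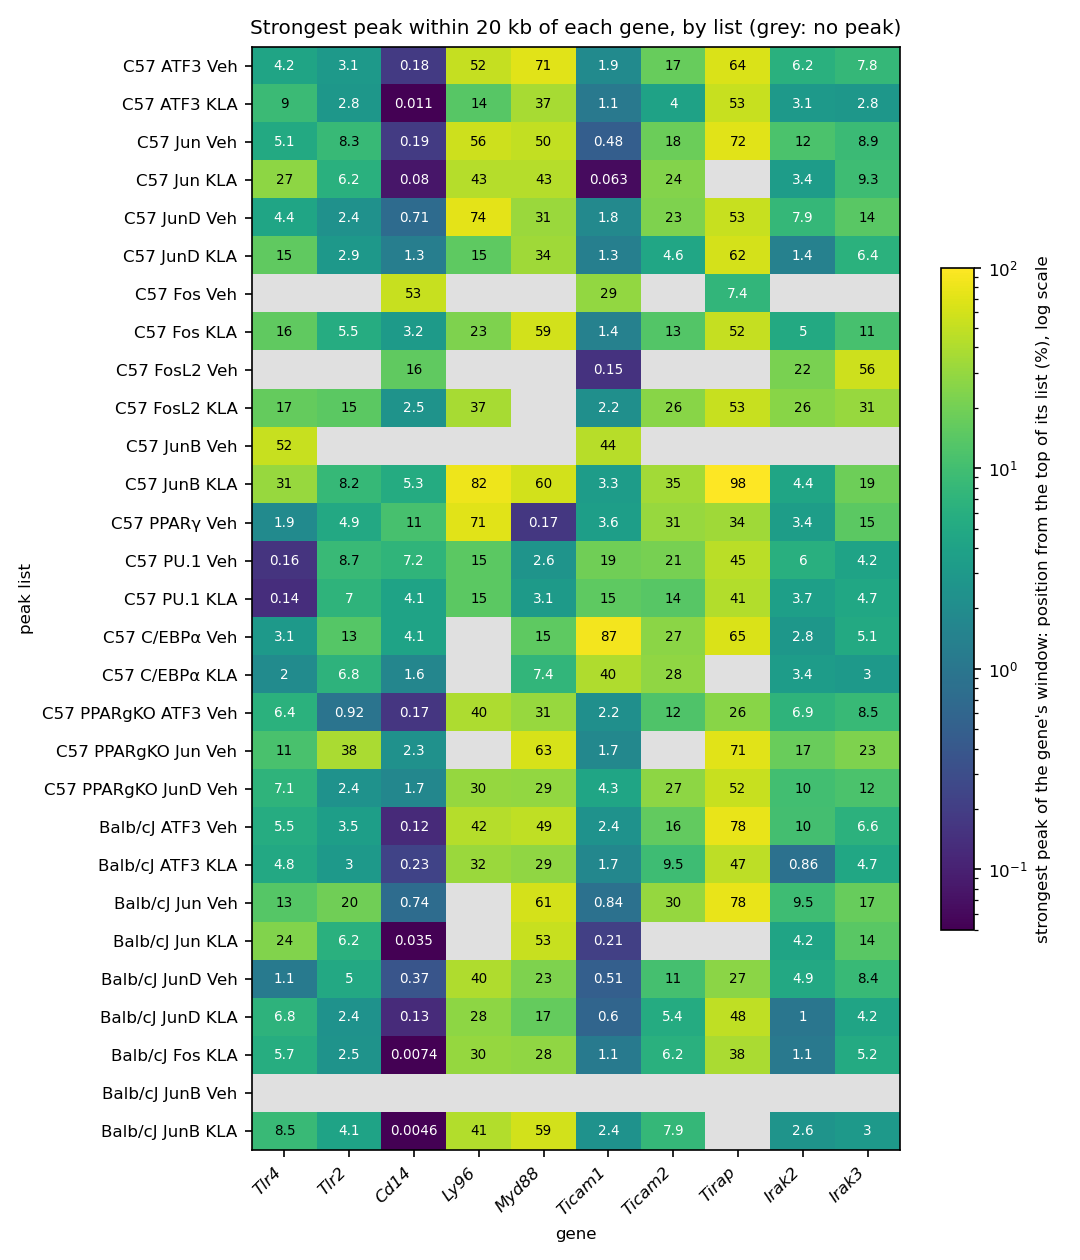
The strongest peak within 20 kb of each gene (columns) in each of the 29 lists that hold peaks (rows), as its position from the top of that list by count in percent, on a log colour scale where dark is strong and grey is no peak. Cd14 and Ticam1 are dark in most AP-1 rows, Tirap and Myd88 are pale, and most Veh cells of Fos, FosL2 and JunB are grey.

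The monomers differed in how many of the genes they reached. ATF3 KLA had peaks at 10 of 10 (55% of coding genes) and Jun KLA at 9 (38%), all but Tirap. Fos was at 3 genes under Veh (13.5%) and 10 under KLA (44.7%), FosL2 at 4 (21.3%) and 9 (27.9%), and JunB at 2 (2.35%) and 10 (30.1%). Only 3 Fos Veh peaks lay in the windows, at Cd14, Ticam1 and Tirap, and only 2 JunB Veh peaks, at Tlr4 and Ticam1. PPARγ and PU.1 Veh peaks were near all 10 (62.2% and 65.9% of coding genes), and C/EBPα KLA peaks near 8 (37.6%), not Ly96 or Tirap. In Balb/cJ, Jun KLA peaks were near 7 genes (32.6%), not Ly96, Ticam2 or Tirap, and JunB KLA peaks near 9 (39.9%), not Tirap. Balb/cJ KLA peaks of ATF3 (58.9%), JunD (57.8%) and Fos (58.3%) were near all 10.

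Joined over the 12 C57Bl/6EiJ AP-1 lists, the windows held 59 loci in lists of both treatments, 38 in KLA lists only and 7 in Veh lists only. These are 56.7%, 36.5% and 6.73% of the 104 loci, against 48.5%, 38.3% and 13.2% of all AP-1 loci, so the share of KLA-only loci was near the background. With Veh and KLA lists cut to equal length the KLA-only loci numbered 18, with no share over all loci under that cut to set beside them. The 38 KLA-only loci of the full lists were 10 of 18 AP-1 loci at Irak3, 9 of 25 at Irak2, 5 of 10 at Tlr2, 4 of 12 at Cd14, 3 of 5 at Ticam2, 2 of 12 at Tlr4, 2 of 6 at Ly96, 2 of 9 at Ticam1, 1 of 4 at Myd88 and 0 of 3 at Tirap, in windows of unequal length. PPARγ had a Veh peak at 46 of the 59 loci of both treatments (78%) but at 7 of the 38 KLA-only loci (18.4%). The same shares over all AP-1 loci were 62.8% and 17.3%. For PU.1 the shares were 78% and 50%, against 70.4% and 38.5% over all AP-1 loci.

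**Figure D2:**
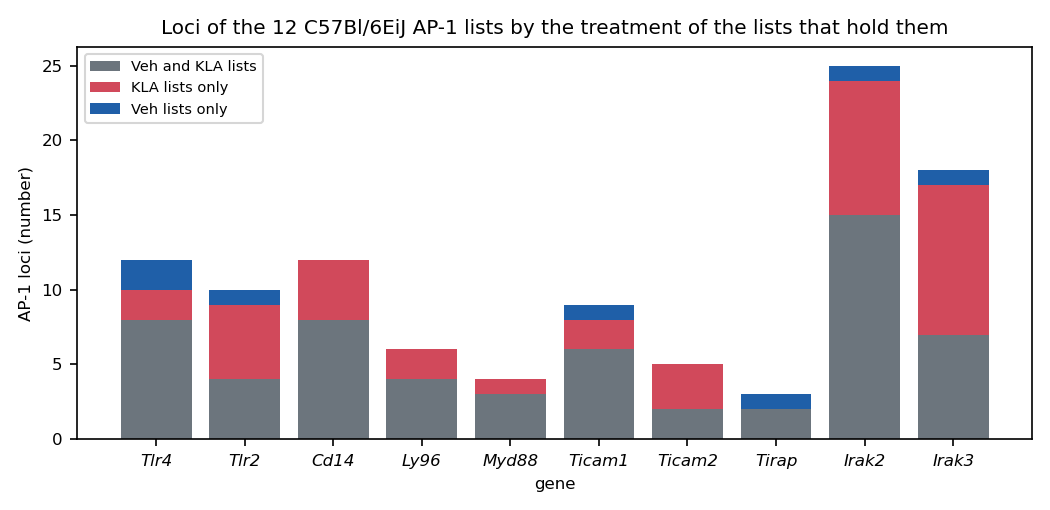
Number of AP-1 loci in each gene's window, split by whether the C57Bl/6EiJ AP-1 lists that hold them are of both treatments, KLA only or Veh only. Irak2 has the most loci (25, of which 9 are KLA-only), and at Irak3 the 10 KLA-only loci exceed the 7 of both treatments.

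By monomer the KLA-only loci were 39 of 95 for ATF3 (background 43.7%), 21 of 62 for Jun (35.3%), 39 of 86 for JunD (45.4%), 56 of 59 for Fos (92.8%), 23 of 37 for FosL2 (60%) and 39 of 41 for JunB (96.6%). PU.1 had 26 of 99 (19.5%) and C/EBPα 17 of 48 (31.2%). In Balb/cJ they were 40 of 92 for ATF3 (51.8%), 19 of 48 for Jun (34.8%) and 34 of 96 for JunD (35.9%). These shares lay within 10 percentage points of their backgrounds in all 11 comparisons. Cutting the C57Bl/6EiJ lists to equal lengths left 20 KLA-only loci for ATF3 and 22 for JunD, again without a background under that cut.

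Tlr4 (chr4:66827584-66930284, plus strand) had 14 AP-1 loci, of which 12 lay in its first 31 kb or upstream and the remaining pair at 64.1 and 67.2 kb. At its start site, PU.1 had a count of 1230 under Veh (rank 66 of 41573) and 366 under KLA (top 0.135%), the strongest PU.1 peak of the 10 genes. AP-1 there was moderate, at a count of 84 in ATF3 Veh (top 27.1%) and 38 in Jun Veh (top 22.1%). The intronic locus 1.3 kb downstream was the strongest for ATF3 Veh, at 180 (top 4.19%), and the locus at 29.6 kb for Jun Veh, at 61 (top 5.12%). The latter, in 24 lists of all kinds, had 128 in JunD Veh (top 4.37%), 116 in PPARγ (top 7.71%) and 179 in Balb/cJ JunD Veh (top 1.12%). At 15.9 kb, PPARγ reached 223 (top 1.88%), above its other Tlr4 peaks.

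Under KLA most Tlr4 loci of C57Bl/6EiJ moved down within the lists. Jun at 1.3 kb went from 49 (top 10.8%) to 24 (top 69.3%) and at 29.6 kb from 61 (top 5.12%) to 35 (top 38.1%). ATF3 at 1.3 kb was 180 under Veh and 184 under KLA, while the median shared ATF3 locus rose by 0.62 on the log2 scale, so its position went from the top 4.19% to the top 10.1%. To compare such changes, each shared locus's log2 KLA to Veh count ratio was centred on the median of all shared loci of that monomer. Of 17 such ratios at Tlr4 (8 loci, ATF3, Jun and JunD), 16 were below 0, and the exception was 0.0023 for ATF3 at 15.9 kb. In Balb/cJ 13 of 18 were below 0, all 9 of Jun and JunD and 4 of 9 of ATF3. The lean below 0 was not confined to Tlr4. At Tlr2, 7 of 8 such ratios were below 0 in C57Bl/6EiJ and 5 of 9 in Balb/cJ. By position in percent, Balb/cJ ATF3 went from the top 22.5% to the top 7.22% at 15.9 kb and from the top 36% to the top 20.9% at the start site. C57Bl/6EiJ ATF3 at 15.9 kb went from the top 23.1% to the top 18.4%. The KLA lists were longer, and only the first of these was also a rise in rank, from 4391 to 2657. The other ranks fell, from 7020 to 7698 and from 5340 to 6758. Scaling by the lists' total counts instead raised the zero point in each of these comparisons, by 0.05 to 0.61, so more loci of any gene fall below 0. All 17 and all 18 Tlr4 ratios were then below 0, but at Ticam1 in C57Bl/6EiJ the number also went from 4 to 11 of 15. That scaling therefore adds no support for a decrease particular to Tlr4. The median of all shared loci is 0 by construction, and loci of a gene are not independent.

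Tlr2 (chr3:83836272-83841767, minus strand), the receptor for bacterial lipoproteins, had a pair of neighbouring upstream loci that differed between treatments. The locus 3.6 kb upstream was in 24 lists. Its counts were 195 in ATF3 Veh (top 3.05%) and 264 in KLA (top 2.83%), 146 in JunD Veh (top 2.36%) and 763 in KLA (top 2.91%), and 53 in Jun Veh (top 8.34%) and 67 in KLA (top 6.18%). These positions were close in the 2 treatments, but in Balb/cJ Jun moved up from the top 19.5% to the top 6.23% and JunD from the top 4.98% to the top 2.39%. The locus 3.2 kb upstream was in no Veh list of any factor or strain. Under KLA it was in the lists of all 6 monomers, at 247 for ATF3 (top 3.75%), 738 for JunD (top 3.56%), 138 for Fos (top 5.52%), 74 for JunB (top 8.22%), 61 for Jun (top 8.71%) and 75 for FosL2 (top 17.8%). In Balb/cJ it was likewise in all 5 KLA lists, at 163 for JunD (top 3.27%) and 247 for Fos (top 3.84%). The start site was also in the KLA lists of all 6 monomers and in no wild-type AP-1 Veh list, with 443 for JunD (top 22.3%). An intronic locus 2.2 kb into the gene moved down for ATF3 and JunD. ATF3 there fell in position from 176 (top 4.51%) to 94 (top 36.6%), a centred log2 ratio of -1.53, lower than all but 0.94% of shared loci. In Balb/cJ it went from 92 (top 8.07%) to 56 (top 36.6%), a centred log2 ratio of -1.41. JunD gave -0.999 and -1.10 in the 2 strains. FosL2, JunB and Fos had weak peaks there under KLA only, at 33 for FosL2 and 25 for JunB in C57Bl/6EiJ. In Balb/cJ these were 63 for Fos and 22 for JunB, whose Veh lists held 0 and 9 peaks in all. Jun had a peak there in Balb/cJ Veh, at 39 (top 30.2%), but in no other Jun list, including both treatments of C57Bl/6EiJ.

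**Figure D3:**
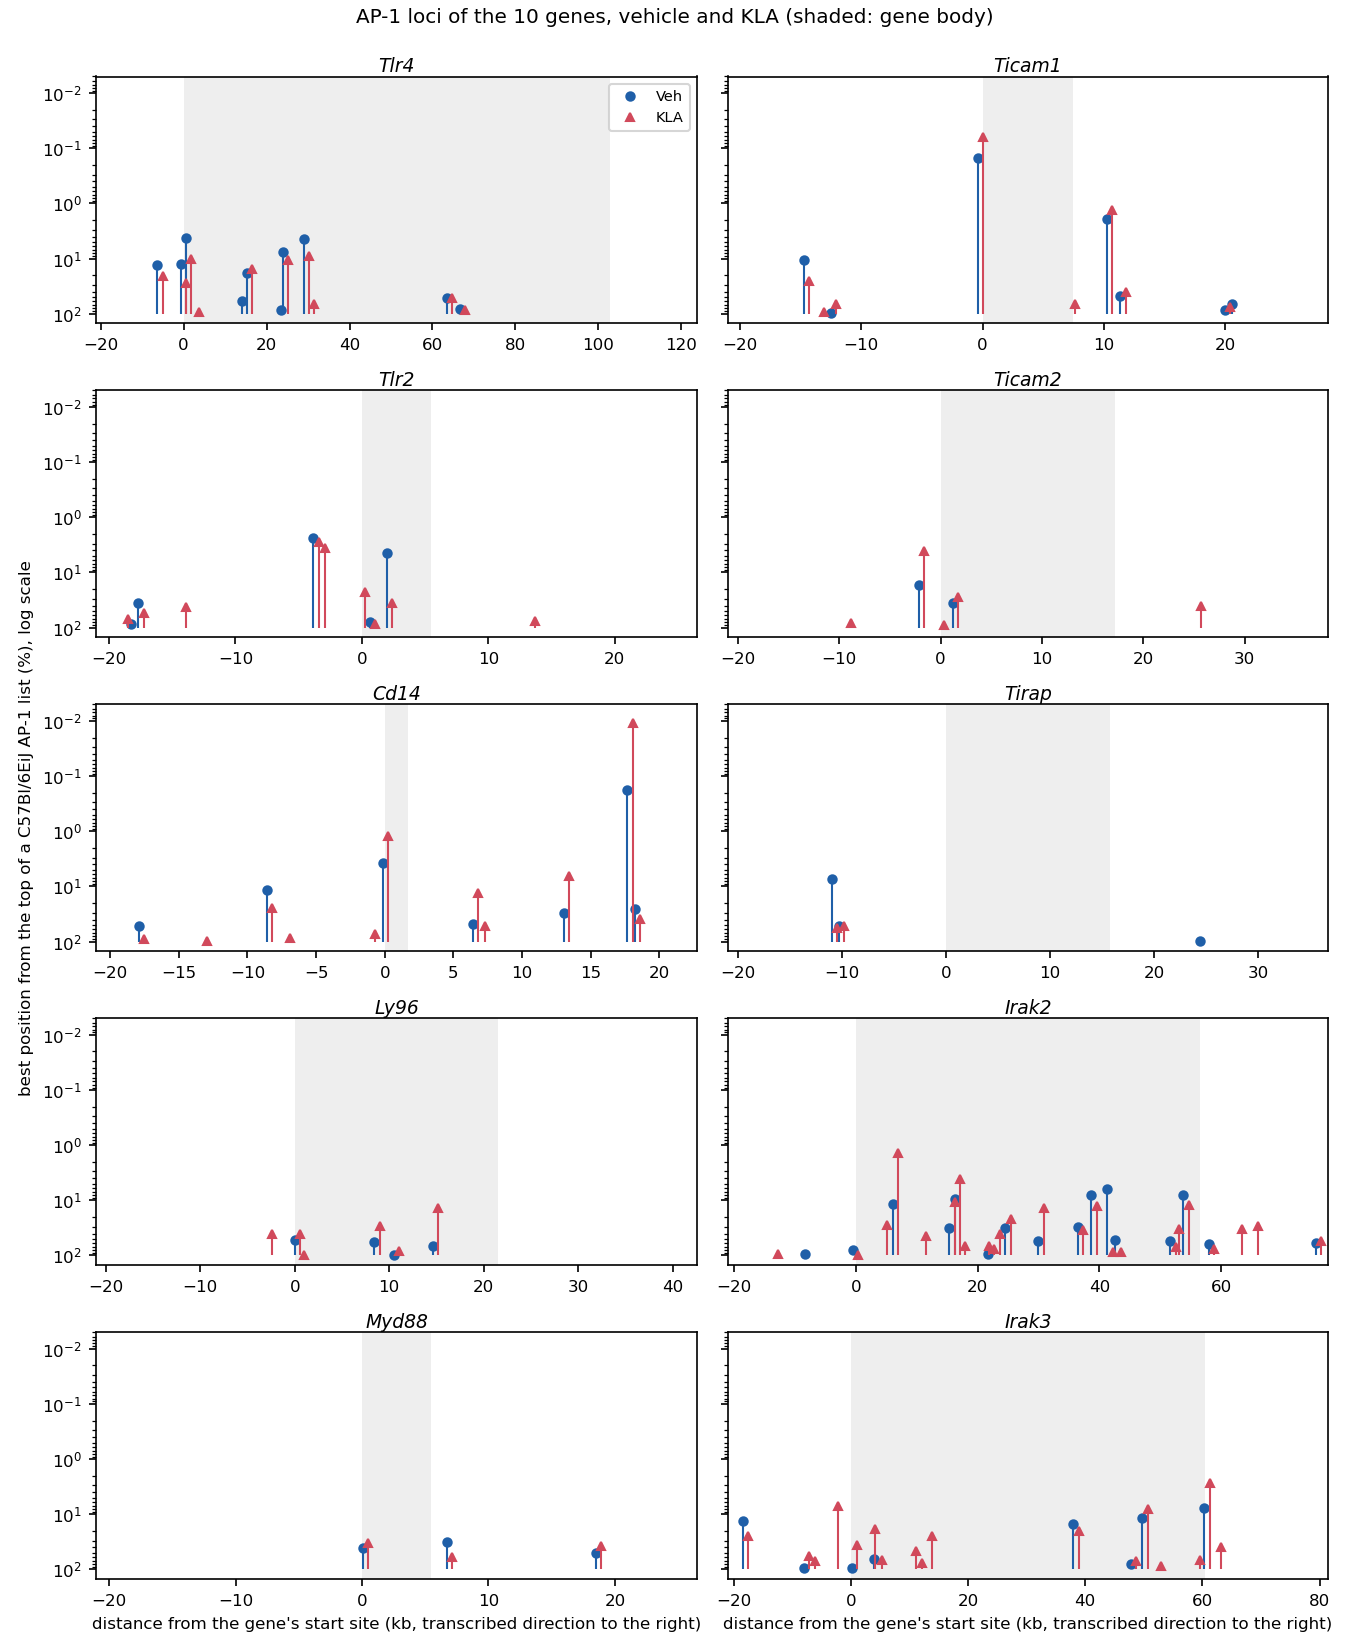
AP-1 loci of each gene by distance from its start site in kb (transcribed direction to the right, gene body shaded), with height giving the best position from the top of any C57Bl/6EiJ AP-1 list in percent on a log axis, for Veh (blue circles) and KLA (red triangles, drawn slightly apart). The highest stems are those of Cd14 at 17.9 kb and Ticam1 at the start site, and Tlr2 shows the KLA-only locus beside the locus of both treatments.

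Cd14 (chr18:36725067-36726798, minus strand) had the best list position of the group, in ATF3 KLA and Balb/cJ JunB KLA, while Ticam1 stood above it in the C57Bl/6EiJ KLA lists of Jun, Fos, FosL2 and JunB. A locus 17.9 kb from its start site, beyond the end of the gene and nearest to the start of E230025N22Rik, held the highest count of the whole Balb/cJ JunB KLA list (242, rank 1 of 21667). Its counts were 307 in ATF3 Veh (top 0.181%) and 474 in KLA (rank 4 of 36745), 100 in Jun Veh (top 0.186%) and 124 in KLA (top 0.0801%), and 173 in JunD Veh (top 0.712%). It was lower in the C57Bl/6EiJ lists of Fos KLA (top 3.16%) and JunB KLA (top 5.83%). In Balb/cJ it was within the top 0.739% of all 8 AP-1 lists of more than 9 peaks. The C57Bl/6EiJ JunD KLA list had no peak there, whereas the Balb/cJ JunD KLA list had 249 (top 0.127%). The start site was in 26 lists. There Jun went from 41 (top 18.4%) to 92 (top 1.22%), ATF3 from 185 (top 3.78%) to 275 (top 2.38%) and JunD from 124 (top 4.99%) to 847 (top 1.28%), and Fos appeared under KLA at 150 (top 4.03%). Loci 6.6 and 13.2 kb from the start site, also beyond the gene's end, moved up under KLA. At 13.2 kb Jun went from 20 (top 67.8%) to 66 (top 6.52%), JunD from 42 (top 64.8%) to 631 (top 7.58%) and ATF3 from 78 (top 30.4%) to 167 (top 12.9%). Their centred log2 ratios were 1.55, 1.37 and 0.47. In Balb/cJ ATF3 gave 1.39 and JunD 1.19. The window also holds the starts of Tmco6, Ndufa2 and Ik, and a locus 8.4 kb upstream overlaps Tmco6.

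Ly96 (chr1:16688051-16709611, plus strand) had weaker loci. At 0.3 kb, in the first coding exon, PU.1 Veh had 558 (top 14.6%) and ATF3 went from 54 (top 52%) to 88 (top 40%). By rank ATF3 there went from 12040 to 14703, in a longer list. An intronic locus at 14.9 kb stood out. ATF3 there went from 43 under Veh to 162 under KLA (top 13.9%), a centred log2 ratio of 1.29, and JunD KLA had 515. It was in the KLA lists of all 6 monomers in C57Bl/6EiJ, and in none of the Balb/cJ lists. The authors left out reads inside Balb/cJ deletions, and whether any deletion lies here was not checked. Another intronic locus at 8.2 kb was in 3 Balb/cJ lists only, at 28 to 40 counts. No C/EBPα peak lay in the window, and PPARγ had 1, at 24 (top 71.2%).

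Of the adaptors, Ticam1 (chr17:56269319-56276786, minus strand) was bound most strongly by AP-1. At its start site Jun had 92 under Veh (top 0.482%) and 127 under KLA (rank 11 of 17480), and in Balb/cJ 97 (top 0.84%) and 126 (top 0.212%). FosL2 Veh had 71 there (rank 8 of 5329), but the FosL2 KLA list had no peak. ATF3 had 173 (top 4.71%) and 317 (top 1.08%), and JunD 153 (top 1.81%) and 692 (top 5.03%). A locus 10.5 kb from the start site, beyond the gene's end and nearest to the start of Fem1a, was the only 1 of the 164 in all 12 C57Bl/6EiJ AP-1 lists. It contained 2 adjacent peaks in most lists. The peak farther from the start site had 217 in ATF3 Veh (top 1.88%), 843 in JunD KLA (top 1.33%) and 186 in Fos KLA (top 1.39%). The nearer was higher in some lists, such as ATF3 KLA (305 against 295). Even the short Fos Veh and JunB Veh lists had a peak at the locus, at 28 and 19. A locus 14.5 kb upstream, in Plin3, went the other way for Jun, from 49 (top 10.8%) to 24 (top 69.3%).

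Ticam2 (chr18:46557291-46574533, minus strand) had its strongest locus 1.9 kb upstream. ATF3 there went from 108 (top 17%) to 243 (top 4%), JunD from 74 (top 23.2%) to 706 (top 4.55%), and Jun was 41 (top 18.4%) and 43 (top 24.4%). In wild-type mice the start site had AP-1 peaks in KLA lists only, none above the top 44.6%. Myd88 (chr9:119335934-119341411, minus strand) had 5 AP-1 loci, none above the top 16.7% of any list. At 0.3 kb ATF3 had 41 (top 71.1%) and 87 (top 40.6%), and JunD 55 (top 41.8%) and 360 (top 33.5%). Other factors were stronger there. PPARγ had 230 at that locus (top 1.76%) and 428 at the locus 18.7 kb from the start site, near the start of Oxsr1 (rank 53 of 31089). PU.1 Veh had 906 at 6.9 kb (top 2.56%), near the start of Acaa1a. Tirap (chr9:35184551-35200291, minus strand) had the fewest peaks, 47 over all lists. Its C57Bl/6EiJ AP-1 loci were a pair 10.1 and 10.7 kb upstream, next to the start of Foxred1, and a weak Veh-only locus at 24.7 kb, in Dcps. The strongest relative to its list was Fos Veh at 10.7 kb, with 47 (top 7.43%).

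The kinases, whose windows are long, had the most loci. Irak2 (chr6:113638467-113695026, plus strand) had 34 AP-1 loci and Irak3 (chr10:120141648-120202130, minus strand) 22. Per 10 kb of window these were 3.52 and 2.19 AP-1 loci, against 3.59 for Cd14, 2.74 for Ticam1 and 2.64 for Tlr2. The Irak2 start site was nearly free of AP-1, with 17 in Jun Veh and 129 in JunD KLA (top 98.1%). In the first intron, 6.6 kb downstream, ATF3 went from 78 (top 30.4%) to 260 (top 3.06%), JunD from 67 (top 28.7%) to 840 (top 1.4%) and Jun from 48 (top 11.5%) to 77 (top 3.36%). The centred log2 ratios were 1.11 for ATF3 and 1.11 for JunD, and 1.10 and 1.23 in Balb/cJ. Fos, JunB and FosL2 joined under KLA at 142 (top 4.99%), 88 (top 4.38%) and 66 (top 25.7%). Jun at 15.8 kb gave the highest centred ratio of the C57Bl/6EiJ comparisons, 1.60 on the log2 scale, from 15 to 51. The locus at 16.8 kb was in the top 0.861% of Balb/cJ ATF3 KLA, at 230. In contrast, ATF3 at 41.7 kb went from 159 (top 6.17%) to 42 (top 86.9%), a centred log2 ratio of -2.54, below all but 0.016% of 18784 shared loci. In Balb/cJ it went from 83 (top 10.8%) to 32 (top 69.2%), -2.07. JunD had 67 there under Veh and C/EBPα 172 (top 9.04%), and neither had a KLA peak. From 30.4 kb on, the nearest start site was that of Tatdn2 or Ghrl.

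Irak3 had strong loci at 60.8 kb, just past its end, and at 50.2 kb in an intron in both states. At 60.8 kb ATF3 had 148 (top 7.79%) and 266 (top 2.77%), and Jun 52 (top 8.9%) and 60 (top 9.34%). The 5′ part of the gene was occupied mostly under KLA. A locus 2.6 kb upstream had no C57Bl/6EiJ Veh peak, and under KLA had 207 for ATF3 (top 7.16%), 60 for Jun (top 9.34%), 111 for Fos (top 10.9%) and 499 for JunD (top 16.4%). It was present at low level in 3 other Veh lists, with 17 for ATF3 and 18 for JunD in PPARgKO and 26 for Balb/cJ ATF3, which rose to 149 (top 5.58%), a centred log2 ratio of 1.82. Intronic loci at 3.6 and 13.5 kb were in KLA lists only, at 119 (top 25.3%) and 67 (top 56.2%) for ATF3. At 0.6 kb ATF3 went from 29 (top 94.4%) to 90 (top 38.8%).

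**Figure D4:**
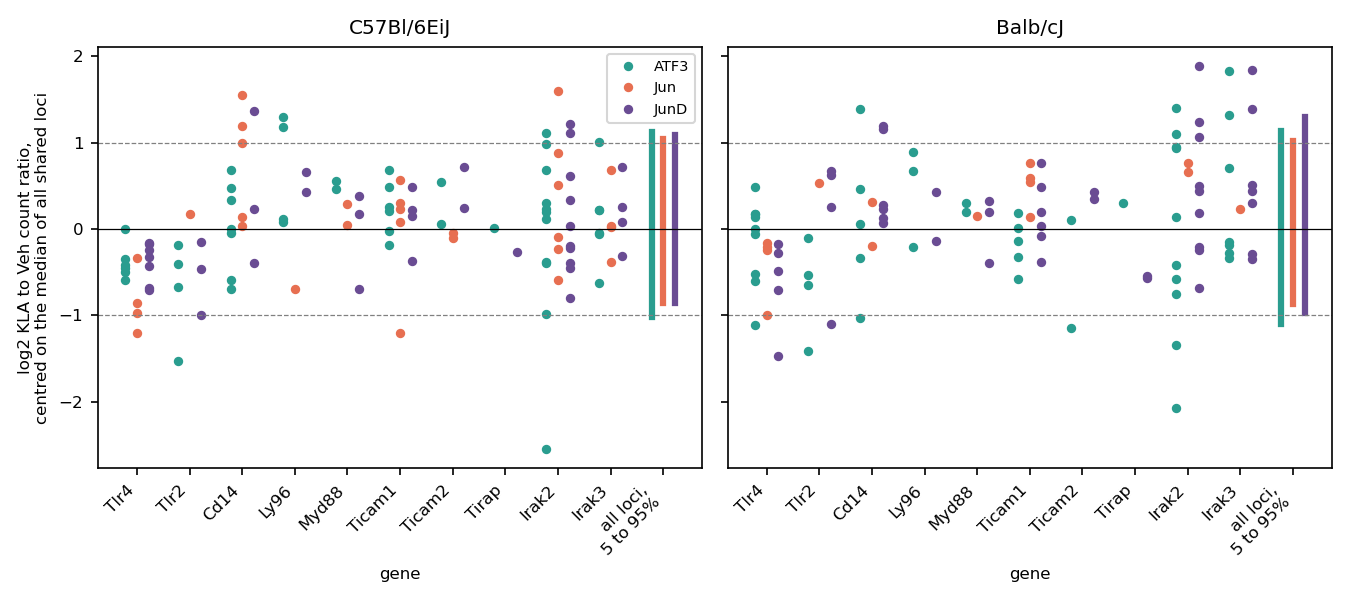
Log2 ratio of KLA to Veh counts at loci shared by the 2 lists of a monomer, centred on the median of all shared loci genome-wide, by gene, for ATF3, Jun and JunD in C57Bl/6EiJ (left) and Balb/cJ (right); bars at the right give the 5 to 95% range of all shared loci and dashed lines mark 2-fold. In C57Bl/6EiJ 16 of 17 Tlr4 points and 7 of 8 Tlr2 points lie below 0. The lowest point of each panel is ATF3 at the Irak2 locus 41.7 kb from the start.

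Past 2-fold, the members' shared loci divided as follows. In C57Bl/6EiJ, ATF3 had 4 of 49 up (6.89% of all shared loci) and 2 down (5.21%), Jun 3 of 30 up (5.64%) and 2 down (2.74%), and JunD 3 of 39 up (6.41%) and 0 down (2.86%). In Balb/cJ, ATF3 had 5 of 48 up (6.88%) and 6 down (6.51%), Jun 0 of 15 up (5.38%) and 0 down (2.96%), and JunD 7 of 46 up (9.17%) and 2 down (4.65%). Scaling by the lists' total counts, which moves the zero point by 0.05 to 0.61 on the log2 scale, left 0 up and 8 down for ATF3 and 0 up and 8 down for JunD in C57Bl/6EiJ. The Irak2 locus at 41.7 kb and the Tlr2 locus at 2.2 kb were down for ATF3 in both strains.

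In PPARgKO macrophages, 29 of 41 wild-type Jun loci in the windows had no Jun peak (70.7%, background 78.2%). For ATF3 these were 13 of 56 (23.2%, background 21.8%) and for JunD 23 of 47 (48.9%, background 46.5%). The PPARgKO Jun list held 4290 peaks against 15548, and with lists of equal length 9 Jun loci lacked a peak (no background is given for that cut). The 3 shares were near or below their backgrounds, so they are not a result about these genes. The 12 Jun loci that kept a peak were at Tlr4 (2), Tlr2, Cd14 (2), Myd88, Ticam1 (2), Tirap, Irak2 and Irak3 (2). They included the Cd14 locus at 17.9 kb (100 in wild type, 41 in PPARgKO), the Ticam1 start site (92 and 43) and the Cd14 start site (41 and 38). Against a median change of -1.05 over all shared Jun loci, the Cd14 start site gave a centred log2 ratio of 0.94, higher than 97% of them. Jun loci without a PPARgKO peak included the Irak2 locus at 6.6 kb (48), the Tlr4 loci at 1.3 kb (49) and 24.6 kb (50), and the only Jun Veh locus at Ly96 and both at Ticam2. By PPARγ binding in wild type, 21 of 32 Jun loci with a PPARγ peak lacked a PPARgKO peak, as did 8 of 9 without. Genome-wide the shares were 71.3% and 91.5%.

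**Figure D5:**
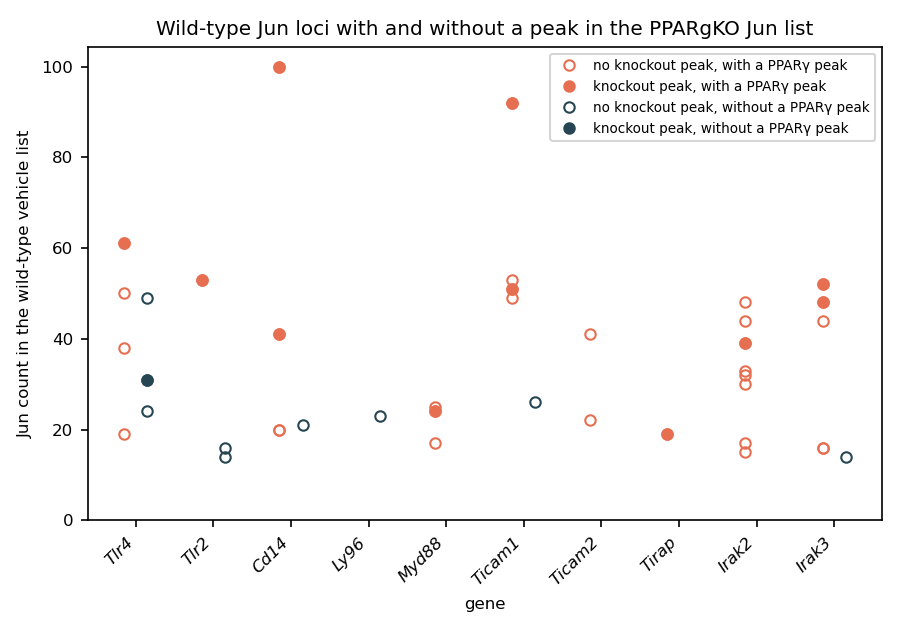
Jun counts of the 41 wild-type Veh loci by gene, filled where the PPARgKO Jun list also has a peak and open where it does not, in orange with and in dark blue without a wild-type PPARγ peak. The highest points, Cd14 at 100 and Ticam1 at 92, are filled, as is 1 of the 9 dark blue points.

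Between strains, the loci found in both lists ranged from 25 of 60 for Jun KLA to 72 of 104 for ATF3 KLA. JunB KLA (31 of 64) and Jun Veh (23 of 47) were also low. Over all loci the counts were 8104 of 20667 for Jun KLA, 28063 of 45441 for ATF3 KLA, 10582 of 24439 for JunB KLA and 7549 of 18941 for Jun Veh. Jun KLA was lowest and ATF3 KLA highest there too, so this order is not a result about these genes. C57Bl/6EiJ-only and Balb/cJ-only loci numbered 12 and 8 of 64 for ATF3 Veh (background 30.5% and 17.5%) and 16 and 16 of 104 for ATF3 KLA (19% and 19.2%). They were 18 and 6 of 47 for Jun Veh (42.2% and 18%) and 26 and 9 of 60 for Jun KLA (45.3% and 15.5%). JunD gave 6 and 21 of 68 under Veh (14.3% and 41.2%) and 18 and 20 of 98 under KLA (19.6% and 24.8%). Fos KLA gave 4 and 38 of 96 (6.02% and 43.4%) and JunB KLA 9 and 24 of 64 (11.4% and 45.3%). The strain with more loci was in each unequal case the strain with the longer list, and cutting to equal length reversed the order for ATF3 Veh (5 and 13), JunB KLA (15 and 10) and JunD KLA (18 and 15) and levelled it for Jun KLA (14 and 14) and JunD Veh (6 and 6). Shares over all loci under that cut are not given, so these changes are not read as results about these genes. Loci in at least 3 lists of a strain and none of the other were few. Those of C57Bl/6EiJ were Ly96 at 14.9 kb (7 lists), Cd14 at 18.4 kb (4) and Irak2 at 17.4 kb (3). Those of Balb/cJ were Tlr4 at 10.2 kb (4 lists) and Ly96 at 8.2 kb, Irak2 at 3.2 and 31.6 kb and Irak3 0.9 kb upstream (3 each), none above the top 52.2% of a list. A locus missing from the Balb/cJ lists may lie in sequence that was not analysed in that strain, which was not checked.

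The other genes of the pathway are given beside the shares of coding genes, 56.5% with an AP-1 peak under Veh, 59.4% under KLA, and 8.33% and 9.08% with a peak in the strongest 5% of a list. Of 10 other Toll-like receptors, 8 had an AP-1 peak in C57Bl/6EiJ under Veh and 8 under KLA, all but Tlr3 and Tlr11. None had a KLA peak in the strongest 5% of a list, and Tlr5, the flagellin receptor, had a Veh peak of that strength. Of 17 signalling genes, from Irak1 and Irak4 to Tbk1 and Irf3, 14 had an AP-1 peak under Veh and 15 under KLA. A KLA peak in the strongest 5% was near 7 of them: Ikbke, Ikbkb, Ube2n, Tbk1, Peli1, Traf3 and Ripk1. A Veh peak of that strength was near 3 of the 17, Ikbke, Tbk1 and Ripk1. Irak1 and Tab3 had no C57Bl/6EiJ AP-1 peak. Of 8 accessory and restraining genes 6 had a Veh peak and 7 a KLA peak, the exception under KLA being Lbp, and 0 had a KLA peak in the strongest 5%. A Veh peak of that strength was near 2 of the 8, Hsp90b1 and Pik3ap1.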

How the data were processed

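Peak lists of 30 ChIP-seq conditions were used. Alignment by the authors used Bowtie2 and mm10 (for Balb/cJ a custom genome, with coordinates shifted to mm10). Reads inside Balb/cJ deletions were left out, and reads over insertions were placed at the last reference position they overlapped. Peak calling used HOMER with the matching input as control, and the authors kept peaks with an irreproducible discovery rate below 0.05 between replicate experiments. The deposited files give, per peak, a count (not scaled to library size, and how replicates were combined is not stated) and a scaled IDR score. The depth of each library is unknown. Whether starts count from 0 or 1 is not stated, and coordinates are given as deposited. The member genes and all gene lists were chosen with earlier results of these data known.

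Peaks were joined, ranked by count and set against GENCODE vM21 genes with Python 3.11.15, numpy 2.4.6 and pandas 2.3.3. A list's position in percent is rank over list length, ties sharing the better rank. Where a locus held several peaks of a list, the highest count was used. Loci were named where they had the best rank of a gene, lay at or nearest its start site, were in at least 10 AP-1 lists, or were wild-type Jun loci without a PPARgKO peak. Others named were chosen after their values were seen. The joining and centring were tested on simulated data. Sequences are from the RefSeq copy of GRCm38, whose chromosome lengths are those of mm10, and none is shown for chromosome 18. Alternatives were another joining rule, windows of 10 and 50 kb, list lengths, count thresholds and scaling. No statistical test was made.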

Additional observations from a re-analysis of the deposited data

How the results depend on the processing

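No paired analysis was possible because each condition had 1 list, and no replicate could be left out. Of 129 recomputed counts, 84 stayed within 1.5 times the reported value, and the other 45 follow. Keeping the strongest 50% of each list, which leaves fewer peaks by construction, gave 99 loci in the windows, 22 KLA-only AP-1 loci, 22 gained loci for ATF3 and 23 for JunD, and 1 (ATF3), 13 (Jun) and 9 (JunD) wild-type loci without a PPARgKO peak. C57Bl/6EiJ-only and Balb/cJ-only loci were then 3 and 3 for ATF3 Veh, 8 and 9 for ATF3 KLA, 17 and 3 for Jun KLA, 2 and 13 for JunD Veh, 4 and 13 for JunD KLA and 2 and 11 for JunB KLA, with 8 C57Bl/6EiJ-only loci for Jun Veh and 1 for Fos KLA. Equal list lengths gave 18 KLA-only loci, 20 gained for ATF3 and 22 for JunD, and 9 Jun loci without a PPARgKO peak. The strain counts were 5 and 13 for ATF3 Veh, 14 and 14 for Jun KLA and 15 and 10 for JunB KLA, with 11 C57Bl/6EiJ-only loci for Jun Veh, and 6 (JunD Veh) and 14 (Fos KLA) Balb/cJ-only loci. A common count threshold of 54 gave 12 gained Jun loci. Scaling by list sums gave 0 up and 8 down for ATF3, 4 down for Jun and 0 up and 8 down for JunD in C57Bl/6EiJ, and 1 up and 14 down for ATF3, 1 down for Jun and 3 up for JunD in Balb/cJ. With 10 kb windows 1 gene had a Fos Veh peak in C57Bl/6EiJ. Ranking by the IDR score put the strongest locus of each of the 10 genes at a tied rank 1. Shares over all loci under the same settings are not given, and the cause of these differences was not tested.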

Other observations

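The Cd14 locus at 17.9 kb, rank 4 of the C57Bl/6EiJ ATF3 KLA list, had no peak in the JunD KLA list of the same strain. Of the 20 strongest ATF3 KLA peaks, 19 had a JunD KLA peak, and the Cd14 locus was the exception. Of the 10 other AP-1 KLA lists, 5 lacked 1 of these 20 peaks, the JunD list among them. The C57Bl/6EiJ Fos, Balb/cJ ATF3 and Balb/cJ Fos lists all lacked the same peak, position 5, and C57Bl/6EiJ FosL2 lacked position 17. The lists alone do not say whether a peak was absent or was removed when replicate experiments were compared.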
